A study of Homo sapiens with 16 samples.

Results

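The genes described are TRAF1, TRAF2, TRAF3, TRAF4, TRAF5 and TRAF6, the receptor CD40, the adaptor TRAF3IP2 and the ubiquitin ligase BIRC3. These 9 genes were taken by symbol from a table of 58051 Ensembl identifiers, each matched exactly 1 identifier, and all 9 were among the 13765 genes with enough signal to test. The list was proposed with results of these data in view, and was in part chosen by the behaviour of TRAF5: its difference between inhibitor and control at medium MYC and its difference in response between the MYC levels had already been seen. Both quantities are therefore given for TRAF5 as a description, without a test, and so are its other comparisons that involve medium MYC libraries. Which values of the other 8 genes were in view was not recorded. Their adjusted p-values say how a difference compares with the spread between libraries and are not independent evidence.

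TRAF proteins are the adaptors that receptors of the TNF receptor superfamily, and the Toll-like, IL-1 and IL-17 receptors, use to reach the NF-kappaB and MAP kinase pathways. CD40 is the B cell receptor for T cell help and recruits TRAF1, TRAF2, TRAF3, TRAF5 and TRAF6 to its cytoplasmic tail. In resting B cells TRAF3, TRAF2 and the cIAP proteins, of which BIRC3 encodes cIAP2, keep the kinase NIK (MAP3K14) at a low level, and CD40 engagement relieves this. TRAF1 and BIRC3 are themselves well-known NF-kappaB target genes.

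P493-6 is an immortalised human B cell line that carries a MYC transgene repressed by doxycycline and an oestrogen-dependent form of the viral transcription factor EBNA2. High MYC cells were grown without additives, and medium MYC cells received 0.1 µg/mL doxycycline together with 1 µM beta-estradiol from 24 h before treatment. Both then received either the solvent DMSO, as control, or 100 nM IMP1088, which blocks the N-myristoyltransferases NMT1 and NMT2, for 24 h. Each of these 4 groups had 4 libraries, and lists of 4 groups below run from high MYC with DMSO and with IMP1088 to medium MYC with DMSO and with IMP1088. All 16 came from 1 cell line, and the labels do not say that they were separate cultures, so p-values measure the spread between these libraries, which may be technical. Differences between medium and high MYC cannot be told apart from effects of doxycycline and of estradiol, which turns on EBNA2 in these cells. The series title asks how NMT inhibition acts at different levels of MYC.

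Libraries held 8755296 to 13858534 reads, and 18899 to 21081 genes had a value above 0. MYC followed the labels, with mean normalized counts of 31649 in high MYC controls and 959 in medium MYC controls, and it was higher with the inhibitor at both levels (47542 and 1382). NMT1 lay between 1417 and 1807 in every library, while NMT2 had 1 to 4 reads per library at high MYC and 13 to 26 at medium MYC. All 8 B cell markers were present in every group, and their summed normalized count was 40451 to 42835, 34080 to 35250, 62194 to 66115 and 56165 to 57808 in the 4 groups. The 5 plasma cell markers summed to 3325 to 3460, 3552 to 3686, 958 to 1050 and 1673 to 1766, so they were lower at medium MYC, where most of the genes described here were higher. The 7 T cell markers summed to at most 249 and the 4 fibroblast markers to at most 649, both highest in medium MYC controls, with CD8A and DCN at 0 there. Against high MYC controls, 2 of 3 tested T cell and 2 of 2 tested fibroblast markers were higher (limma adjusted p-value under 0.05). COL1A1, 1 of these fibroblast markers, had a mean under 10 at high MYC and was tested only because of the medium MYC libraries. The 6 monocyte markers summed to at most 84.4, with FCN1 at 0 in all groups. The part of these marker differences in the results below was not tested.

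Promoter sequence is shown for 4 genes because they differ in how they behaved: TRAF1 and BIRC3, with large differences and opposite responses to the inhibitor at high MYC, TRAF5, whose inhibitor response appeared at medium MYC, and TRAF3, which stayed within a narrow band. Each sequence is RefSeq's, on GRCh38.p14, and runs 5′ to 3′ on the gene's own strand to the base before an annotated start. For BIRC3 it stops 4 bases earlier. Capitals mark matches to 3 motifs searched on both strands: the NF-kappaB consensus, the core TGGGAA of RBPJ (the DNA-binding protein through which EBNA2 acts) and the E-box CACGTG (the class of site bound by MYC with MAX).
TRAF1 (chr9:120929172-120929421, minus strand): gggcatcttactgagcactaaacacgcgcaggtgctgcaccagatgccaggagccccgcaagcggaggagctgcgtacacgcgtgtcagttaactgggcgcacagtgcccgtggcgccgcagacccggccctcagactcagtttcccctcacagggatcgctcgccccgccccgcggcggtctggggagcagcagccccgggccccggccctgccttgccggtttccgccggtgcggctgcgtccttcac
TRAF3 (chr14:102777199-102777448, plus strand): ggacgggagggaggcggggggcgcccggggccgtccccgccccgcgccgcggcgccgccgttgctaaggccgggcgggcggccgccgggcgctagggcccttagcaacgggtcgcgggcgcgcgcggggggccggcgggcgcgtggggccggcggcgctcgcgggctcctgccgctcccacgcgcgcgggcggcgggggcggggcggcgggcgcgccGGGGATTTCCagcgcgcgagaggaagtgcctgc
TRAF5 (chr1:211326385-211326634, plus strand): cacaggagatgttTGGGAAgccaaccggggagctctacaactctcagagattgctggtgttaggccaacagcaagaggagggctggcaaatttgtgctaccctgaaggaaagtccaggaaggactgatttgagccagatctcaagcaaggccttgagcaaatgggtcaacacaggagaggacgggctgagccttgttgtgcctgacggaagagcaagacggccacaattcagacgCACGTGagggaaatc
BIRC3 (chr11:102317234-102317479, plus strand): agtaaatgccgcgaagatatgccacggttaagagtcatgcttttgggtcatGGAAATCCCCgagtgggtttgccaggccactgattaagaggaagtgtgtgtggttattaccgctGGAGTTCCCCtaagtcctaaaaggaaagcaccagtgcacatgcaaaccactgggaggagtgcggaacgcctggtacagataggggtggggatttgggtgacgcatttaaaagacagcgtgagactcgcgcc

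The 250 bases before the BIRC3 start held 2 NF-kappaB matches, at positions -199 to -190 and -135 to -126 from the start, and those before the TRAF3 start held 1, at -33 to -24. In the TRAF5 window, 1 RBPJ core lay at -237 to -232 and 1 E-box at -15 to -10, and the E-box lies again in the overlapping window of a second annotated start. The TRAF1 window shown held no match, and neither did that of a second start, but the window of another start within the gene had 2 RBPJ cores. TRAF6 had 1 RBPJ core, and TRAF2, TRAF4 and TRAF3IP2 had no match in their windows. Of 35116 such windows of all genes, 5.21% held the NF-kappaB consensus, 20.8% the RBPJ core and 6.34% the E-box, and a match is a description, not a site shown to be bound. In all 13 windows of 8 of the 9 genes were searched, and CD40 had none in the table used.

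CD40, TRAF1, TRAF5, TRAF6, TRAF3IP2 and BIRC3 were higher at medium than at high MYC in controls, and TRAF2, TRAF3 and TRAF4 were nearly level. The span was wide, from 19.4-fold for TRAF1 to 1.23-fold for TRAF6. A gene was called when its limma adjusted p-value, over all 13765 genes, was under 0.05. By that rule 6 of the 9 were called higher, TRAF5 among them, and 0 lower, where 38.9% of all tested genes were called higher and 37.3% lower. The median log2 difference of the 9 was 1.45, beside 0.02 for all tested genes. TRAF5 at medium MYC was known when the list was made, so nothing is read from that count or from this median. In bulk RNA, more cells that express a gene and more of its RNA per cell cannot be told apart.

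**Figure D1:**
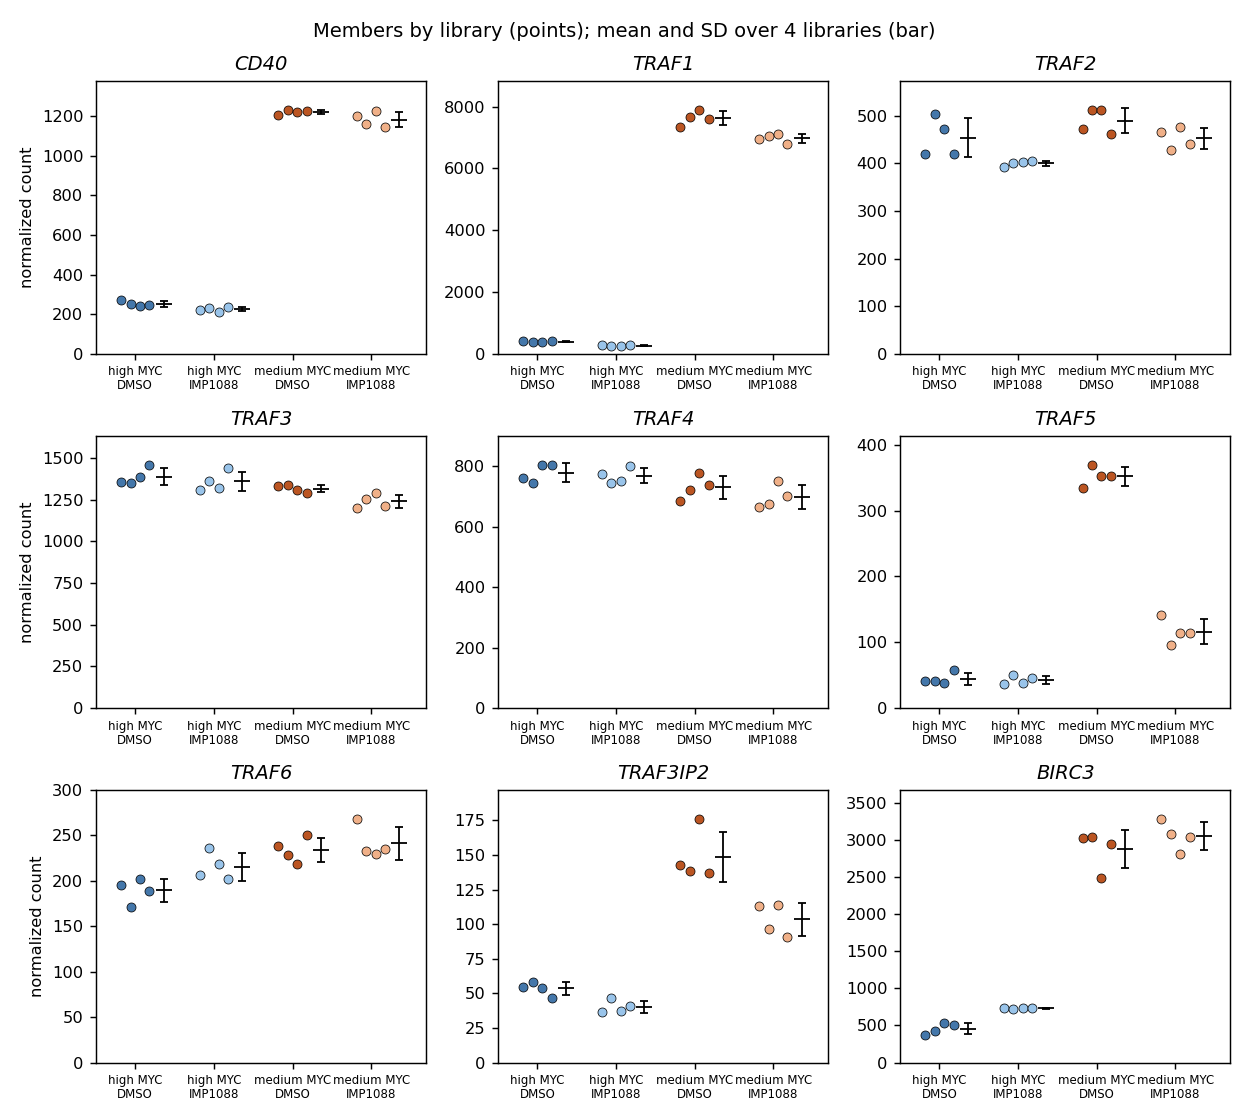
Normalized counts of the 9 genes (vertical axis, linear from 0, a separate scale in each panel) in the 4 groups, 4 libraries each as points, with the mean and SD as a bar. CD40, TRAF1, TRAF5, TRAF3IP2 and BIRC3 stand higher in all medium MYC libraries, and TRAF5 drops from a mean of 352 to 116 with IMP1088 at medium MYC.

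The receptor came first. CD40 (ENSG00000101017, chromosome 20, 46118272 to 46129863 on GRCh38 in GENCODE 29) had normalized counts, which are reads divided by a library size factor, of 270.4, 249, 239 and 247 in high MYC controls. In medium MYC controls the values were 1207, 1230.3, 1221 and 1225, a spread of under 1% around the mean (coefficient of variation 0.824%). The groups were far apart and without overlap, and the log2 difference was 2.28 (SE 0.05, limma adjusted p-value 8.92e-21), or 4.84-fold.

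TRAF1 (ENSG00000056558, chromosome 9, 120902393 to 120929173), a TRAF without the RING domain of its relatives, gave the largest difference of the 9 genes in these controls. Its normalized counts were 407, 375, 366 and 417 at high MYC and 7326, 7658, 7881 and 7611 at medium MYC. Every medium MYC library stood above every high MYC library, with a log2 difference of 4.28 (SE 0.04, limma adjusted p-value 1.14e-25).

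TRAF5 (ENSG00000082512, chromosome 1, 211326615 to 211374946), which acts with TRAF2 and TRAF3 below CD40 and related receptors, was scarce at high MYC. Its normalized counts there were 40.7, 41.6, 38.6 and 58.1, from 35 to 54 reads per library. At medium MYC the controls had 334, 369.8, 353 and 352. No library of the first group came near the second, and the log2 difference was 2.97 (SE 0.14), or 7.82-fold.

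BIRC3 (ENSG00000023445, chromosome 11, 102317450 to 102339403) encodes cIAP2, a ubiquitin ligase that binds TRAF2. Its normalized counts were 367, 425, 533 and 502 in high MYC controls, an uneven group, and 3026, 3039, 2489 and 2950.2 in medium MYC controls. The groups did not overlap, and the log2 difference was 2.66 (SE 0.08, limma adjusted p-value 1.57e-17), or 6.33-fold.

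TRAF3IP2 (ENSG00000056972, chromosome 6, 111556454 to 111606278), also called Act1, links the IL-17 receptor to TRAF6. Its normalized counts were 55.0, 58.4, 54.1 and 46.9 at high MYC and 143, 139, 176 and 137 at medium MYC in controls. The second group was higher throughout, by 1.45 on the log2 scale (SE 0.12, limma adjusted p-value 3.99e-10), or 2.73-fold.

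TRAF6 (ENSG00000175104, chromosome 11, 36487027 to 36510272), the ubiquitin ligase shared by CD40, Toll-like and IL-17 signalling, differed least among those called. Its normalized counts were 196, 172, 202 and 189 at high MYC and 239, 229, 219 and 250.3 at medium MYC in controls. The groups were adjacent without overlap, and the log2 difference was 0.30 (SE 0.07, limma adjusted p-value 8.69e-04).

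TRAF2, TRAF3 and TRAF4 stayed within a narrow band. TRAF2 (ENSG00000127191, chromosome 9, 136881912 to 136926607), the adaptor that brings cIAP proteins to the receptor, had a log2 difference between control groups of 0.11 (95% interval -0.01 to 0.23, limma adjusted p-value 0.0947). TRAF3 (ENSG00000131323, chromosome 14, 102777476 to 102911500), the brake on NIK, had -0.07 (95% interval -0.15 to 0.0027, limma adjusted p-value 0.0739). TRAF4 (ENSG00000076604, chromosome 17, 28743984 to 28750958), a family member not known for CD40 binding, had -0.09 (95% interval -0.19 to 0.0058, limma adjusted p-value 0.0809). All 3 were called in at least 1 alternative analysis: TRAF2 without replicate 2 of the high MYC controls (0.16, limma adjusted p-value 0.0164, range over alternatives 0.0164 to 0.282), TRAF3 with edgeR (-0.08, adjusted p-value 0.0401, range 0.0121 to 0.252) and TRAF4 without replicate 3 of the medium MYC controls (-0.12, limma adjusted p-value 0.0248, range 0.0045 to 0.259).

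Under the inhibitor the comparison of MYC levels gave 6 genes called higher and 2 lower, where 39.7% and 37.8% of all tested genes were called. TRAF5, whose inhibitor response at medium MYC was known when the list was made, is among the 6, so nothing is read from that count. The log2 difference was 4.73 for TRAF1, 2.39 for CD40, 2.06 for BIRC3, 1.42 for TRAF5, 1.34 for TRAF3IP2 and 0.18 for TRAF2 (SE 0.04, 0.05, 0.08, 0.14, 0.12 and 0.06). TRAF3 and TRAF4 were lower, by -0.13 and -0.14 (SE 0.04 and 0.05, limma adjusted p-values 0.0027 and 0.0116). TRAF6 missed the threshold there, at 0.16 (limma adjusted p-value 0.0525, range over alternatives 0.0191 to 0.194). This comparison shares its libraries with the inhibitor comparisons below.

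**Figure D2:**
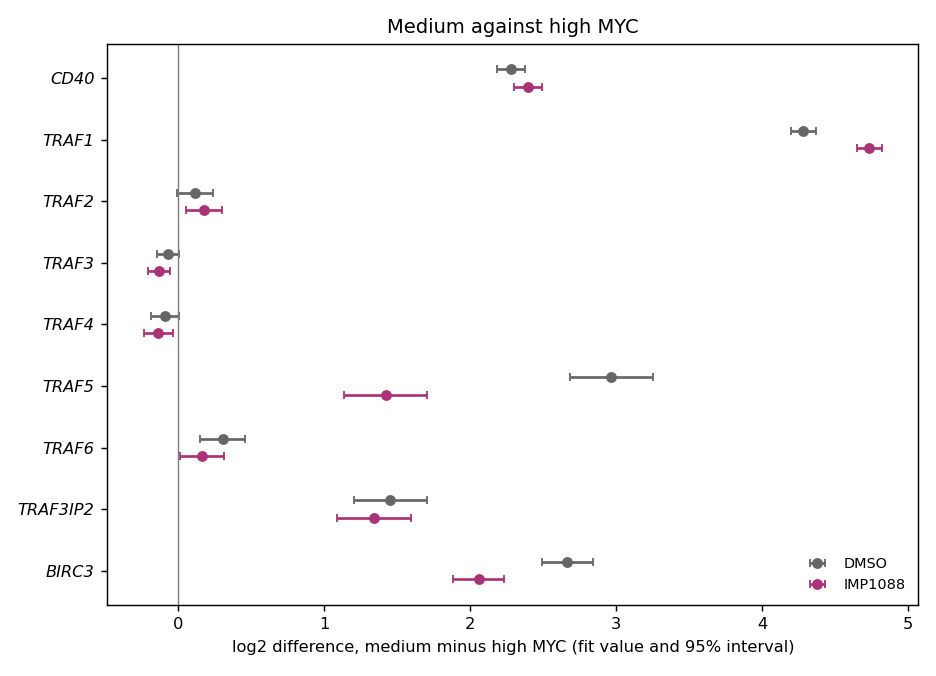
Log2 difference between medium and high MYC (horizontal axis, fitted value with 95% interval) for each gene, in DMSO controls (grey) and under IMP1088 (purple). TRAF1 lies farthest right at 4.28 and 4.73, TRAF5 moves from 2.97 to 1.42, and TRAF2, TRAF3 and TRAF4 lie within 0.18 of 0.

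Levels of different genes were compared per kilobase of exon. In high MYC controls the order was TRAF4 (169 ± 6.65 normalized counts per kb, SD, n = 4), TRAF3 (168 ± 6.19), TRAF2 (124 ± 11.4), CD40 (99.5 ± 5.24), BIRC3 (60.7 ± 10.0), TRAF1 (60.7 ± 3.79), TRAF6 (38.9 ± 2.67), TRAF3IP2 (8.18 ± 0.735) and TRAF5 (4.96 ± 0.998). TRAF4 and TRAF3, and likewise BIRC3 and TRAF1, did not differ beyond their spread. In medium MYC controls TRAF1 came first (1181 ± 35.4 per kb), followed by CD40 (483 ± 3.98) and BIRC3 (383 ± 34.7). Behind them stood TRAF3 (159 ± 2.56), TRAF4 (159 ± 8.37), TRAF2 (134 ± 7.13), TRAF6 (48.1 ± 2.78), TRAF5 (39.0 ± 1.63) and TRAF3IP2 (22.7 ± 2.80), with TRAF3 and TRAF4 again within each other's spread.

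Among TRAF1 to TRAF6 the make-up thus turned over. TRAF1 gave 10.7% ± 0.722 (SD, n = 4) of the family's summed level per kb in high MYC controls, 7.64% ± 0.256 with the inhibitor, 68.7% ± 0.260 in medium MYC controls and 68.9% ± 0.595 with the inhibitor. The summed level of all 6 was 566, 531, 1721 and 1569 per kb in the same order, while that of TRAF2 to TRAF6 was 505, 490, 539 and 488. The larger family total at medium MYC was therefore almost wholly TRAF1. TRAF5 made up 0.875% ± 0.165, 0.890% ± 0.121, 2.27% ± 0.0708 and 0.820% ± 0.134 of the family in the 4 groups. In medium MYC cells with the inhibitor its share was within the spread of that at high MYC, although its level was not.

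**Figure D3:**
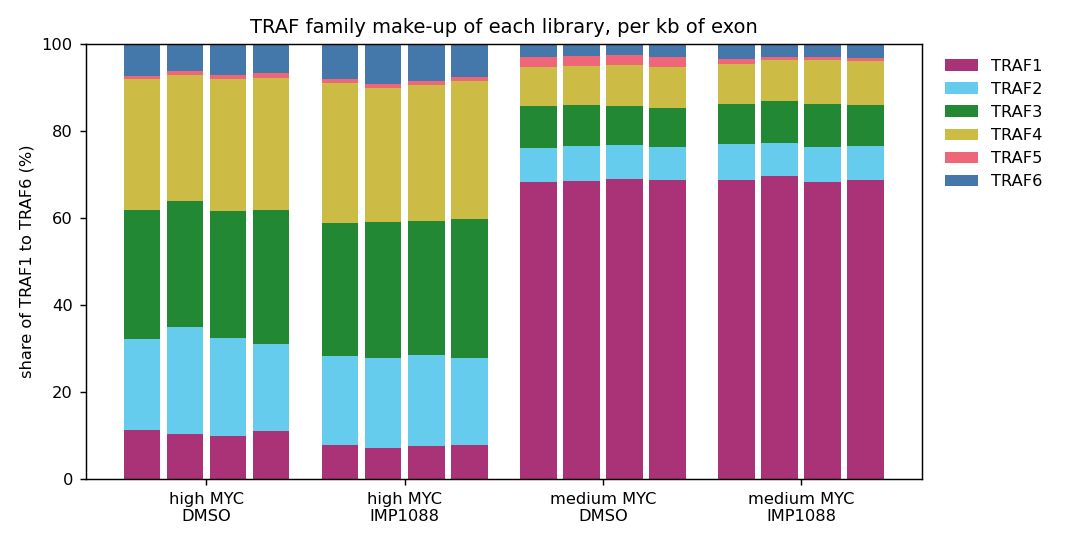
Share of each of TRAF1 to TRAF6 in their summed normalized count per kb (vertical axis, percent), 1 bar per library, grouped by MYC level and treatment. TRAF1 fills 68.3% to 69.7% of the medium MYC bars and 7.31% to 11.4% of the high MYC bars.

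At high MYC the inhibitor was followed by more BIRC3 and less TRAF1, CD40, TRAF2 and TRAF3IP2 mRNA. That is 1 gene called higher and 4 called lower of 9, where 10.5% of all tested genes were called higher and 16.3% lower. The split over all genes, 1442 higher and 2247 lower, became 1727 and 1770 with quantile normalization. BIRC3 and TRAF1 kept their calls and directions under every alternative run, and the other 3 did not.

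BIRC3 went from 367, 425, 533 and 502 in the controls to 738, 723, 737 and 729 with the inhibitor. The treated libraries were tightly grouped and all above the highest control. BIRC3 rose by 0.69 on the log2 scale (SE 0.08, limma adjusted p-value 1.95e-06), or 1.62-fold.

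TRAF1 went from 407, 375, 366 and 417 to 266, 249.6, 256 and 275. All treated libraries were below the lowest control, and TRAF1 fell by 0.58 on the log2 scale (SE 0.04, limma adjusted p-value 1.00e-09). BIRC3 and TRAF1 thus moved in opposite directions under the same treatment.

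CD40 had 222, 229.6, 211 and 236 with the inhibitor, just below the 239 to 270.4 of the controls. It fell by 0.16 on the log2 scale (SE 0.05, limma adjusted p-value 0.0113), a call that was lost with only the compared groups in the fit (limma adjusted p-value 0.0802) and with DESeq2 (adjusted p-value 0.0912, range over alternatives 0.0068 to 0.0912). TRAF3IP2 went to 36.6, 46.6, 37.5 and 40.5 with the inhibitor, below the 46.9 to 58.4 of the controls by a margin of less than 1 normalized count. It fell by 0.40 on the log2 scale (SE 0.12, limma adjusted p-value 0.0161), and the call was lost with DESeq2 (adjusted p-value 0.0817) and without replicate 2 of the controls (limma adjusted p-value 0.0511, range over alternatives 0.0088 to 0.0817).

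TRAF2 was 419.5, 504, 473 and 420.2 in the controls and 393, 400.4, 403 and 405 with the inhibitor. The treated libraries were below all controls, and the wide spread was in the controls. TRAF2 fell by 0.18 on the log2 scale (SE 0.06, limma adjusted p-value 0.0293), but 10 of 21 alternatives lost the call (range of adjusted p-values 0.0135 to 0.305). The log2 change was -0.09 with the GC correction (limma adjusted p-value 0.305) and -0.13 with quantile normalization (0.110). Without replicate 2 or 3 of the controls the log2 change was -0.13 or -0.16 (limma adjusted p-values 0.128 and 0.0773), and without replicate 1, 2 or 3 of the treated libraries it was -0.17, -0.18 or -0.18 (0.0698, 0.0562 and 0.0508).

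The other 4 genes did not pass at high MYC. TRAF5 was 36.6, 49.9, 38.4 and 45.7 with the inhibitor, on 34 to 45 reads per library, which overlaps its controls at 38.6 to 58.1. Its log2 change was -0.06 (95% interval -0.34 to 0.22, limma adjusted p-value 0.795), and changes within that interval are not excluded. The TRAF5 quantities seen beforehand fix this change as well, so its p-value is only a description. TRAF6 had 206, 236, 218 and 202, overlapping its controls, with a log2 change of 0.18 (95% interval 0.03 to 0.34, limma adjusted p-value 0.0707). With quantile normalization TRAF6 was called there (0.22, limma adjusted p-value 0.0354, range over alternatives 0.0354 to 0.217). TRAF3 and TRAF4 had log2 changes of -0.03 (95% interval -0.11 to 0.05) and -0.02 (95% interval -0.12 to 0.08), with limma adjusted p-values of 0.620 and 0.807.

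At medium MYC the inhibitor was followed by less TRAF5, TRAF3IP2 and, narrowly, TRAF1 mRNA, while BIRC3 and CD40 stayed close to their controls. Called were 0 genes higher and 3 lower of 9, TRAF5 among them, where 11.7% of all tested genes were called higher and 14.6% lower. As TRAF5 in this comparison was known when the list was made, nothing is read from that count.

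TRAF5 went from 334, 369.8, 353 and 352 in the controls to 141, 95.4, 114 and 114 with the inhibitor, on 320 to 432 and 96 to 121 reads per library. The highest treated library was well under the lowest control. The log2 change was -1.61 (SE 0.14), or 3.04-fold lower. With the inhibitor the medium MYC libraries were nonetheless all above the high MYC ones, by 2.68-fold. The level of TRAF5 thus ran in the order medium MYC control, medium MYC inhibitor, high MYC control and high MYC inhibitor, and the last 2 did not differ beyond their spread.

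TRAF3IP2 went from 143, 139, 176 and 137 to 113, 96.4, 114 and 90.7. No treated library reached the lowest control, and TRAF3IP2 fell by 0.52 on the log2 scale (SE 0.12, limma adjusted p-value 0.0026). TRAF1 went from 7326, 7658, 7881 and 7611 to 6949.5, 7037, 7100.2 and 6792. It fell by 0.13 on the log2 scale (SE 0.04, limma adjusted p-value 0.0245) without overlap of the groups, but 8 of 21 alternatives lost the call (range of adjusted p-values 7.23e-04 to 0.0757). Without replicate 2 or 3 of the controls, or replicate 1 or 4 of the treated libraries, the adjusted p-values were 0.0555, 0.0702, 0.0518 and 0.0738.

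BIRC3 had 3278, 3079, 2804 and 3042 with the inhibitor, overlapping the 2489 to 3039 of its controls. Its log2 change was 0.09 (95% interval -0.09 to 0.26, limma adjusted p-value 0.489), or 0.02 without replicate 3 of the controls, which lay at 2489. CD40 had 1201, 1160.3, 1227 and 1144, also overlapping its controls, with a log2 change of -0.05 (95% interval -0.14 to 0.05, limma adjusted p-value 0.519). TRAF2, TRAF3, TRAF4 and TRAF6 had log2 changes of -0.11, -0.09, -0.06 and 0.04, with limma adjusted p-values from 0.0887 to 0.731.

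**Figure D4:**
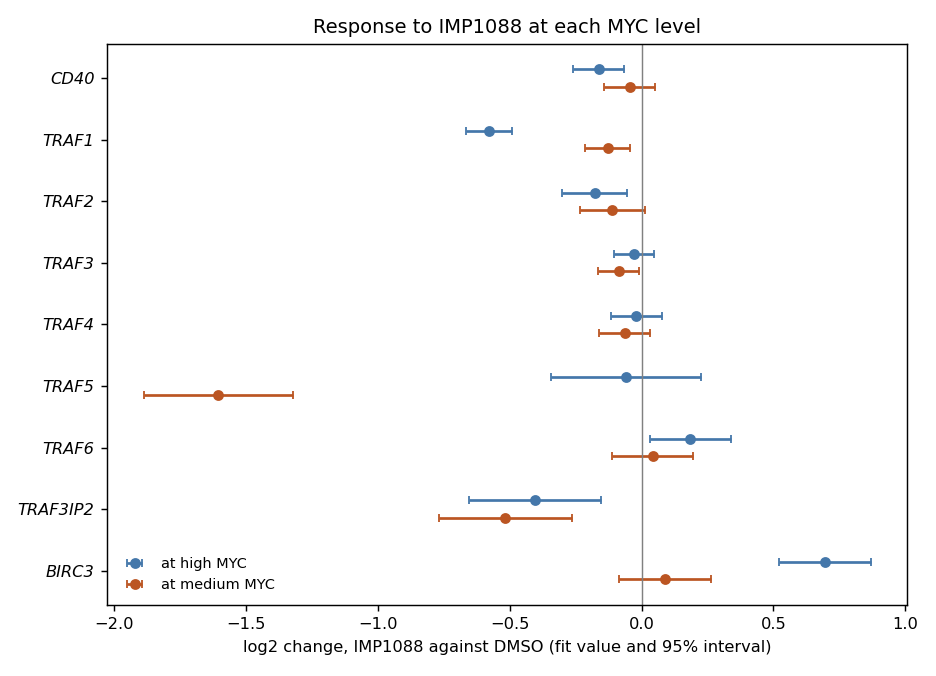
Log2 change with IMP1088 against DMSO (horizontal axis, fitted value with 95% interval) for each gene at high MYC (blue) and at medium MYC (orange). TRAF5 lies at -0.06 and -1.61, BIRC3 at 0.69 and 0.09, and TRAF1 at -0.58 and -0.13 at the 2 levels.

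The difference between the 2 responses was taken from the same fit, as the response at high MYC minus that at medium MYC. By that measure 2 of 9 genes were called higher and 1 lower, where 3.31% of all tested genes were called higher and 5.33% lower. TRAF5, 1 of the 3, was known when the list was made, so nothing is read from that count. The TRAF5 difference was 1.55 (SE 0.19). TRAF1 had a more negative response at high MYC, by -0.45 (SE 0.06, limma adjusted p-value 1.82e-05). BIRC3 had a more positive one, by 0.61 (SE 0.12, limma adjusted p-value 0.0018). The differences of TRAF1 and BIRC3 kept their sign and call under the 29 alternatives run for each, over which that of TRAF5 ran from 1.46 to 1.68.

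For the other 6 genes a difference in response was not shown. CD40 had -0.12 (95% interval -0.25 to 0.02, limma adjusted p-value 0.318). TRAF3IP2, lower with the inhibitor at both levels, had 0.11 (95% interval -0.24 to 0.47, limma adjusted p-value 0.776). TRAF2, TRAF3, TRAF4 and TRAF6 had -0.07, 0.06, 0.05 and 0.14, with limma adjusted p-values from 0.479 to 0.768.

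Genes with the most similar pattern were sought over the 16 libraries, among 10844 tested genes with a symbol and a mean normalized count of at least 50. All correlations here share the large difference between MYC levels and are a description. TRAF5 was nearest to ARHGEF17 (Pearson r = 0.983 on the log2 scale), CAST (0.982) and NACC2 (0.980). ARHGEF17 had mean normalized counts of 180.1, 174, 619 and 293 in the 4 groups, the same order as TRAF5. BIRC3 was nearest to RHOH (0.995), ATF7IP (0.993) and KMT5B (0.993), TRAF1 to FNBP1 (0.999), RASSF4 (0.999) and ZFP36L1 (0.999), and CD40 to FNBP1 (0.999), TYK2 (0.999) and ETV6 (0.999). Between the members themselves, TRAF1 and CD40 had r = 0.998, TRAF5 and TRAF3IP2 had 0.939, and TRAF5 and BIRC3 had 0.844.

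The wider pathway was read from 8 lists of genes around the TRAFs, among them receptors, ligands, partners and targets, with calls from the same fit. The lists were chosen with earlier results of these data known, so their counts, here and below, are a description and not a test. A listed gene that was low at high MYC could pass the filter on low values only through the medium MYC libraries, and was then bound to differ. Of 26 CD40-induced B cell genes 25 passed the filter, 3 of them (CD80, CCL17 and LTA) with a mean under 10 at high MYC. The other 22 were each called higher in medium MYC controls, where 38.9% of all tested genes were. Among them CCR7, the lymph node homing receptor, had a mean normalized count of 11.0 ± 1.63 (SD, n = 4) at high and 8457 ± 415 (SD, n = 4) at medium MYC. Of 16 TNF superfamily ligands 9 passed the filter, 3 of them (LTA, TNFSF4 and TNFSF13) with a mean under 10 at high MYC, and the other 6 were each called higher. TNFSF4, the ligand of OX40, went from a mean normalized count of 7.27 ± 3.82 to 359 ± 23.7 (SD, n = 4). CD40LG, the ligand of CD40, was too low to test. The list of CD40-induced genes shares LTA, TNFAIP3, NFKBIA, NFKB2 and RELB with other lists. SPOP is listed both among the TRAF regulators and among the more distant TRAF-domain genes, so it is counted in each.

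Receptors that use TRAFs split. Of 22 listed 18 passed the filter, 3 of them (TNFRSF9, NGFR and IL18R1) only through the medium MYC libraries, and of the other 15, 5 were called higher and 7 lower. TNFRSF18, the receptor GITR, fell by 2.30 on the log2 scale (limma adjusted p-value 4.87e-11). TNFRSF9, the receptor 4-1BB, had a mean normalized count of 0.469 at high and 97.0 at medium MYC. Of 25 TRAF partner adaptors and enzymes IRAK2 passed only through the medium MYC libraries, and of the other 24, 16 were higher and 5 lower. IRAK1, a kinase of the Toll-like receptor pathway that feeds TRAF6, had a log2 difference of -0.93. Of the TRAF regulators 13 of 15 were higher and 1 lower, led by TNFAIP3, the deubiquitinating enzyme A20, at 3.89. NF-kappaB subunits and inhibitors were higher in 12 of 14 and lower in 2, led by NFKBIZ at 4.05. Of 5 more distant TRAF-domain genes 1 was higher and 3 lower, with USP7, a deubiquitinating enzyme, at -0.57. These counts stand beside the 38.9% higher and 37.3% lower over all genes.

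**Figure D5:**
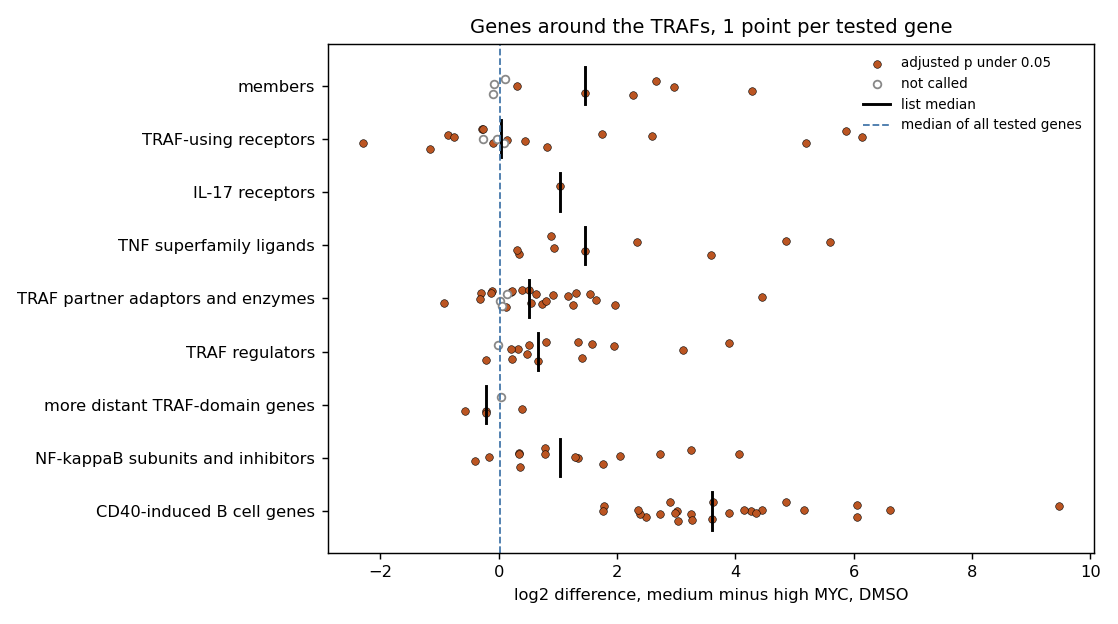
Log2 difference between medium and high MYC controls (horizontal axis) for every tested gene of the 9 described and of each surrounding list, 1 point per gene, filled where called. The black bar is the list's median and the dashed line that of all tested genes (0.02), and the 25 CD40-induced genes that passed the filter lie to its right, 3 of which passed only through the medium MYC libraries.

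With the inhibitor at high MYC, 10 of 25 CD40-induced genes rose and 4 fell, and at medium MYC 8 rose and 0 fell. The 4 include LTA, which had low counts at high MYC. Over all tested genes the shares were 10.5% higher and 16.3% lower at high MYC, and 11.7% and 14.6% at medium MYC. CD83, an activation marker of B cells, rose by 0.59 and 0.33 (limma adjusted p-values 3.10e-06 and 0.0016), and CCL4, a chemokine, rose by 0.79 at medium MYC. NF-kappaB subunits and inhibitors had 4 higher and 0 lower of 14 at high MYC, and 4 higher and 3 lower at medium MYC. NFKBID, a nuclear regulator of NF-kappaB, rose by 0.82 and 0.56 (limma adjusted p-values 3.85e-08 and 5.75e-06). The difference in response was called higher in 2 of the 14 and lower in 1, beside 3.31% and 5.33% of all tested genes. These 3 genes, named after their values were seen and so given without a test, were NFKB2 at 0.25, RELB at 0.35 and REL at -0.22. NFKB2 and RELB, the pair of the non-canonical branch that TRAF3 and NIK control, had log2 changes of 0.32 and 0.35 at high MYC and 0.07 and 0.0018 at medium MYC. REL, a subunit of the canonical branch, had 0.18 at medium MYC.

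Of 25 partners of the TRAFs, 1 rose, 8 fell and 16 were not called at high MYC, where 10.5% of all tested genes were called higher and 16.3% lower. At medium MYC 0 rose, 9 fell and 16 were not called, where the shares were 11.7% and 14.6%. MYD88, the Toll-like receptor adaptor upstream of TRAF6, fell by 0.40 and 0.36 (limma adjusted p-values 3.70e-06 and 1.28e-05), and IKBKE, an IKK-related kinase, fell by 0.55 at medium MYC. Among the 15 TRAF regulators 2 rose and 4 fell at high MYC, and 2 rose and 6 fell at medium MYC. TRAF3IP3, a TRAF3-binding protein, fell by 0.39 and 0.64 (limma adjusted p-values 1.07e-05 and 7.87e-09). TRAF3IP3 was named for its fall at medium MYC, so the difference between its responses, 0.25, is given without a test. That difference was in the direction of TRAF5 and smaller.

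Of 18 receptors 2 rose and 7 fell at high MYC (all genes 10.5% and 16.3%), and 1 rose and 5 fell at medium MYC (all genes 11.7% and 14.6%). EDA2R, the receptor XEDAR, rose at both levels, by 0.43 and 0.66, and CD27, a memory B cell receptor, rose by 0.45 at high MYC and had 0.02 at medium MYC (limma adjusted p-value 0.873). TNFRSF4, the receptor OX40, fell by 0.72 at medium MYC. Of 9 ligands 3 fell at high MYC and 1 at medium MYC, and 0 rose: TNFSF14, the ligand LIGHT, fell by 0.25 and 0.58. LTA, 1 of the 3 at high MYC, had low mean normalized counts there, 7.09 with DMSO and 4.40 with IMP1088 (limma adjusted p-value 0.0467). Among the 5 more distant TRAF-domain genes 0 were called at high MYC and 1, SPOP, rose by 0.20 at medium MYC.

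IL17RA was the only 1 of 5 IL-17 receptor genes with enough signal to test. IL17RA fell with the inhibitor by 0.33 at high MYC and by 0.43 at medium MYC (limma adjusted p-values 3.80e-04 and 1.88e-05). It was higher at medium MYC in controls, by 1.04 (limma adjusted p-value 1.71e-12). In each of these 3 comparisons the sign was that of TRAF3IP2, the adaptor that binds this receptor.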

How the data were processed

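RNA of P493-6 cells was sequenced in 16 libraries, 4 per group. Per the submitters' processing notes the authors used STAR 2.5.2a, RSEM 1.2.31, DESeq2 1.16.1 and the build GRCh38, while the gene annotation and use of strand are not given in the sources used here. The deposited values, a signal the authors call normalized counts, were whole numbers, called reads here, divided by 1 factor per library (100% of values whole). These factors equalled median-of-ratios factors. As RSEM is named, the reads may be estimated counts that were rounded before scaling. limma 3.58.1 in R 4.3.3 was fitted on log2(value + 1) to 13765 genes whose mean reached 10, with 4 group means, a mean trend, and two-sided Benjamini-Hochberg adjustment over all tested genes at 0.05. Log2 changes understate those of low genes. Fits were tested on simulated data in which, unlike here, no gene differed between the control groups. Of planted log2 changes of 1, 84% were called at high MYC and 78% for the difference in response. For smaller planted changes the shares were 75% and 63%, and 14 and 10 unchanged genes were called.

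The members and lists were chosen with earlier results of these data known. Symbols came from a gene name table (56948 of 58051 identifiers matched), positions and exon lengths from GENCODE 29. Antisense exons overlap TRAF4 (mean normalized counts of 0.278 and 0.128 against 744) and TRAF3IP2 (4.88 against 86.5), and TRAF6 has 1 named pseudogene, so these counts are less certain.

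All 9 members were reported. From the lists the called gene with the largest rise and fall per comparison was eligible, with a mean of at least 50, and not each was printed. Alternatives covered scaling (equal totals, quantile, TMM), pseudocounts of 0.1 and 10, filters, no trend, compared groups only, a replicate block, edgeR 4.0.16 and DESeq2 1.42.0 on recovered reads, and each library left out. A GC correction was added after seeing the data.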

Additional observations from a re-analysis of the deposited data

Results flagged for a closer look

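The response to the inhibitor differed between high and medium MYC for TRAF1 and BIRC3. The difference in log2 response, high minus medium, was -0.45 for TRAF1 and 0.61 for BIRC3 (limma adjusted p-values 1.82e-05 and 0.0018). For TRAF5, whose value was known when the list was made and is not tested, it was 1.55.

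In 4 of 36 groups of 4 libraries the most distant library lay farther from the others than a 95% limit allows, where chance alone flags about 1 group in 20. These were TRAF5 in high MYC controls (highest normalized count 58.1, replicate 4), TRAF6 in medium MYC inhibitor libraries (highest 268, replicate 1), TRAF3IP2 in medium MYC controls (highest 176, replicate 3) and BIRC3 in medium MYC controls (lowest 2489, replicate 3). Without the library in question, TRAF5 at high MYC had a log2 change of 0.07 in place of -0.06, and TRAF6 at medium MYC had -0.0090 in place of 0.04, neither of them called. Without replicate 3 of the medium MYC controls, the inhibitor response at medium MYC was 0.02 in place of 0.09 for BIRC3, not called, and -0.43 in place of -0.52 for TRAF3IP2 (limma adjusted p-value 0.0159). The difference in response of BIRC3 was then 0.67 (limma adjusted p-value 2.92e-04).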

How the results depend on the processing

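Of 1012 alternative values for the 45 results on single members, 968 kept their direction and their side of the threshold, 22 lost the call, 14 gained it and 8 changed sign, and 31 results kept both under every alternative run. The sign changes were all in uncalled values near 0. With quantile normalization and with the GC correction, the change with the inhibitor at high MYC became 0.021 and 0.012 for TRAF3 and 0.0080 and 0.042 for TRAF4, and with the GC correction BIRC3 at medium MYC had -0.0039. With 1 library left out, TRAF5 at high MYC ran from -0.14 to 0.070 (above 0 without high MYC control replicate 4 and, at 0.0090, without high MYC inhibitor replicate 1), and TRAF6 at medium MYC from -0.0090 (without medium MYC inhibitor replicate 1) to 0.075; the cause was not tested. The number of members called with the inhibitor at high MYC, 5, became 3 with only the compared groups in the fit and 2 with DESeq2, and lay between 3 and 5 with 1 library left out. The filter at a mean of 100 removed TRAF3IP2. Same-numbered libraries did not steadily deviate together (r from -0.15 to 0.24), so no pairing by number was seen, though a weak one is not excluded. With the replicate block 5, 3, 3, 6 and 8 members were called in the 5 comparisons, as without it. TRAF5 is included in the 45 results and in these counts only as a description, because its medium MYC values were known beforehand. Low depth limits TRAF5 and TRAF3IP2 at high MYC, with 34 to 73 reads per library.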
